A study of Caenorhabditis elegans with 15 samples.

Results

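GATA transcription factors bind DNA through zinc fingers that recognise the letters GATA, and in Caenorhabditis elegans separate members of the family build the skin and the gut. The transcripts of 8 such genes were followed in whole larvae with and without signalling by DBL-1, a bone morphogenetic protein that sets body size. The members were the rows of the deposited count table named elt-1, elt-3, egl-18, elt-6, elt-2, elt-7, elt-4 and egl-27, and all 8 were found among 16259 genes. The epidermal members are elt-1, which specifies epidermal fate in the embryo, elt-3, which acts in the differentiated epidermis, and egl-18 and elt-6, which act in the seam cells, the stem-like cells of the epidermis. The intestinal members are elt-2, the main regulator of differentiated intestinal cells, and elt-7, which acts alongside it. elt-4 is a small relative of elt-2 with no established function. egl-27 encodes a protein of the MTA type, a class found in chromatin-remodelling complexes, that carries a GATA-type zinc finger and acts in patterning and stress responses.

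The RNA came from L2 larvae of 3 genotypes, grown at 20 °C on agar plates with E. coli: 5 libraries of sma-6 mutants, 5 of sma-3 mutants and 5 of the wild-type strain N2. sma-6 encodes a receptor of the DBL-1 pathway and sma-3 a Smad protein that carries its signal to the nucleus. The comparisons ask which transcripts depend on this signalling. The labels name the mutated genes and not their alleles, and they do not say whether the 5 libraries of a genotype came from separate cultures, so p-values measure only the spread between these libraries. Whole animals were extracted, so each value is a sum over all tissues that express the gene.

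Libraries held 16467702 to 48292350 counts. Levels are given as CPM, the counts of a gene relative to the library total, scaled for composition by the trimmed mean of M-values (TMM). Each mutated transcript was lowest in its own mutant: sma-6 stood at 8.83 to 9.75 CPM in sma-6 mutants, 23.2 to 27.02 CPM in sma-3 mutants and 37.2 to 47.7 CPM in the wild type, and sma-3 stood at 21.8 to 25.4, 8.86 to 10.8 and 22.6 to 32.5 CPM in the same order of genotypes. Wild-type replicate 5 stood apart, with a mean root-mean-square log2 distance of 0.459 to the other wild-type libraries against 0.443 to the sma-3 libraries. Wild-type replicate 3 differed in another way: the summed level of 6 vitellogenin genes, yolk genes of the adult intestine, was 234.6 CPM there and 3.97 to 20.7 CPM in the other libraries. The sample-sheet numbers of the 3 genotypes ran in separate blocks, so that library order and genotype cannot be told apart. Markers fixed for body wall muscle, pharynx, neurons, germline, intestine, epidermis and seam cells were all detected in each genotype.

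All members are protein-coding genes on the plus strand of build WBcel235. egl-18 (WBGene00001186, chromosome IV, 1902322 to 1917840) and elt-6 (WBGene00001253, chromosome IV, 1917977 to 1921643) are direct neighbours with 136 bases between them. elt-1 (WBGene00001249) lies further along the same chromosome at 9614995 to 9620280. elt-4 (WBGene00001252, chromosome X, 10475527 to 10475959) lies 5280 bases before elt-2 (WBGene00001250, chromosome X, 10481240 to 10483441), with 1 other protein-coding gene between them. elt-3 (WBGene00001251) is also on chromosome X, at 13934874 to 13941216. elt-7 (WBGene00015981) is on chromosome V at 4770670 to 4773086, and egl-27 (WBGene00001194) is on chromosome II at 6835008 to 6847908. No exon of a member overlapped an exon of another annotated gene. All 8 members passed the filter on low counts, which kept 13720 genes.

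To compare the members with each other, levels were divided by the summed exon length of each gene, since longer transcripts collect more reads. In the wild type egl-27 stood at 36.1 ± 2.21 and elt-3 at 35.3 ± 3.71 CPM per kb (SD, n = 5 here and for each mean ± SD that follows). Next came elt-2 at 27.9 ± 2.02, egl-18 at 19.3 ± 0.652 and elt-1 at 14.2 ± 1.55 CPM per kb. elt-7 at 10.5 ± 1.88 and elt-6 at 10.2 ± 0.538 CPM per kb were close to each other, and elt-4 was far below them at 2.24 ± 0.407 CPM per kb. The wild-type ranges overlapped for 3 pairs of neighbours in this order: egl-27 and elt-3, elt-1 and elt-7, and elt-7 and elt-6. Among the 13575 tested genes with an annotated length, 78.0% had a lower wild-type level per kb than egl-27, 72.7% than elt-2, 46.5% than elt-6 and 19.2% than elt-4.

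In both mutants elt-2 moved towards egl-18 in this order. The elt-2 level was 21.8 ± 2.74 CPM per kb in sma-6 mutants, 23.4 ± 1.75 in sma-3 mutants and 27.9 ± 2.02 in the wild type, while egl-18 stood at 19.9 ± 1.60, 19.8 ± 1.64 and 19.3 ± 0.652 CPM per kb. The ranges of these genes overlapped in both mutants and were separate in the wild type. elt-6 came before elt-7 in both mutants and after it in the wild type, with overlapping ranges in each genotype.

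**Figure D1:**
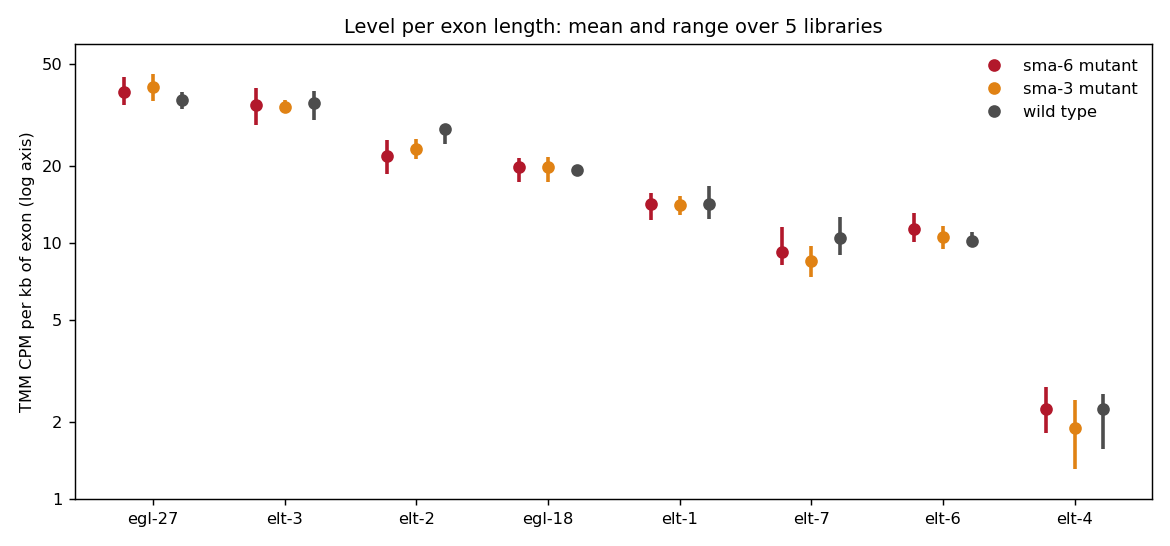
Level of each member in CPM per kb of exon, on a log axis, with the mean (point) and the lowest and highest library (line) of sma-6 mutants, sma-3 mutants and the wild type. elt-2 stands at 21.8, 23.4 and 27.9 CPM per kb, and elt-4 is the lowest member in each genotype.

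The intestinal factor elt-2 was the only member called in any comparison by edgeR's quasi-likelihood test, with p-values adjusted by Benjamini and Hochberg's method over all 13720 genes and a threshold of 0.05. It fell in both mutants, to 78.1% of the wild-type level in sma-6 mutants and 83.6% in sma-3 mutants. In sma-6 mutants elt-2 stood at 39.6, 33.9, 29.1, 30.7 and 36.7 CPM, in sma-3 mutants at 35.2, 38.9, 39.6, 35.0 and 33.3 CPM, and in the wild type at 45.2, 44.8, 45.2, 44.4 and 37.9 CPM. Every mutant library lay below wild-type replicates 1 to 4, and the only overlap came from wild-type replicate 5, the lowest wild-type value. The sma-6 difference was called (log2 fold change -0.36, SE 0.083, adjusted p = 0.0137 by edgeR), with 4 of 5 sma-6 libraries below every wild-type library. The sma-3 difference was called too (log2 fold change -0.26, SE 0.082, adjusted p = 0.0437 by edgeR), with 3 of 5 sma-3 libraries below every wild-type library.

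The fall in sma-6 mutants passed in every alternative fit tried, with adjusted p between 0.00162 and 0.0348. The call in sma-3 mutants sat at the edge of the threshold: it was made in 6 of 15 fits that left out a library and in 5 of 9 other alternatives, with adjusted p between 0.0137 and 0.220 and log2 fold changes between -0.30 and -0.17. Without wild-type replicate 5 the log2 fold changes were -0.40 in sma-6 mutants (adjusted p = 0.00605 by edgeR) and -0.30 in sma-3 mutants (adjusted p = 0.0137 by edgeR). Exact two-sided permutation tests of log2 CPM gave p = 0.0159 for sma-6 and p = 0.0238 for sma-3 mutants, where 252 splits allow no value below 0.00794, and neither passed adjustment over the 24 such tests made here (0.286 for both). Genes called lower made up 3.51% of all tested genes in sma-6 mutants and 10.2% in sma-3 mutants, genes called higher 3% and 4.4%, and genes called in either direction 6.5% and 14.6%. A single call, 1 of 8 members, is near that background. The authors' deposited table, which covers sma-3 mutants against the wild type, gives elt-2 a log2 fold change of -0.27 and a false discovery rate of 0.0360, and gives the other 7 members false discovery rates from 0.162 to 0.888.

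In whole-animal RNA, fewer intestinal cells and less elt-2 RNA in each cell cannot be told apart. The summed level of 7 intestinal markers was 5707 to 6847 CPM in sma-6 mutants and 5732 to 7141 CPM in sma-3 mutants. In the wild type it was 6042 to 7055 CPM, so the ranges overlapped. The marker with the highest level, asp-1, averaged 3899 CPM in sma-3 mutants, against 3315 CPM in the wild type. Its log2 fold change there was 0.23 (adjusted p = 0.0675 by edgeR), while the other 6 markers had negative values. For sma-6 mutants the values of all 7 were negative, with asp-1 at -0.01. The sums weigh asp-1 most and can hide falls of the other markers. Of these 7 markers 2 were called lower in sma-6 mutants and 4 in sma-3 mutants, and none higher. The 8 body wall muscle markers summed to 16176 to 19319 CPM in sma-6 mutants, 14682 to 16598 CPM in sma-3 mutants and 13008 to 16285 CPM in the wild type. Of these 8 markers 2 were called higher in sma-6 mutants and 1 in sma-3 mutants. The 8 neuron markers summed to 862 to 1032 CPM in sma-6 mutants, 971 to 1133 CPM in sma-3 mutants and 955 to 1013 CPM in the wild type, with 0 called in sma-6 mutants (0 at an unadjusted p under 0.05 by edgeR) and 2, unc-104 and unc-10, called higher in sma-3 mutants. The 7 germline markers summed to 253.0 to 405 CPM in sma-6 mutants, 199.7 to 231 CPM in sma-3 mutants and 184 to 304 CPM in the wild type. None of the germline markers was called against the wild type by edgeR, with 4 in sma-6 and 2 in sma-3 mutants at an unadjusted p under 0.05. Of all 13720 genes, fewer than 3189 passed that in sma-6 mutants and at least 3690 in sma-3 mutants. The 6 epidermis markers summed to 1938 to 2568 CPM in sma-6 mutants, 1626 to 2352 CPM in sma-3 mutants and 1702 to 2260 CPM in the wild type. The 5 seam cell markers summed to 240 to 279, 247 to 311 and 200 to 323 CPM in the same order. None of either list was called against the wild type. At an unadjusted p under 0.05 by edgeR, 2 epidermis and 3 seam cell markers passed in sma-6 mutants, and 0 and 1 in sma-3 mutants. No marker of these lists was at 0 in all libraries of a genotype, and their part in the elt-2 result was not tested.

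The second intestinal factor, elt-7, had less than the elt-2 level per kb in each library and was not called. It stood at 7.46, 7.86, 6.93, 9.69 and 6.95 CPM in sma-6 mutants, at 6.18, 6.72, 7.68, 8.16 and 7.03 CPM in sma-3 mutants, and at 7.53, 7.74, 7.74, 10.4 and 10.7 CPM in the wild type. Wild-type replicates 4 and 5 were the highest of all 15 libraries, and the ranges of the genotypes overlapped. Its log2 fold change was -0.17 in sma-6 mutants (SE 0.13, adjusted p = 0.491 by edgeR) and -0.29 in sma-3 mutants (SE 0.13, adjusted p = 0.137 by edgeR). The 95% intervals, from 0.737- to 1.07-fold in sma-6 mutants and from 0.678- to 0.986-fold in sma-3 mutants, contain changes as large as that of elt-2.

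The relation between the intestinal factors was measured within libraries. The ratio of elt-2 to elt-7 per kb was 2.40 ± 0.477 in sma-6 mutants, 2.77 ± 0.344 in sma-3 mutants and 2.75 ± 0.601 in the wild type. In wild-type replicate 5, where elt-2 was lowest and elt-7 highest among wild-type libraries, it was 1.92.

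elt-4 was close to the limit of what the depth can measure. It had 16 to 22 counts in sma-6 libraries, 12 to 20 in sma-3 libraries and 11 to 41 in wild-type libraries, the last in the deepest library. These counts correspond to 0.868 ± 0.131 CPM in sma-6 mutants, 0.737 ± 0.172 CPM in sma-3 mutants and 0.868 ± 0.158 CPM in the wild type. The 95% intervals of the fold change ran from 0.728 to 1.37 in sma-6 mutants and from 0.614 to 1.17 in sma-3 mutants, so a change of the size seen for elt-2 was not detectable at this depth.

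The genes that start the endoderm in the embryo, end-1, end-3, med-1 and med-2, are GATA factors as well. end-1 and med-2 had at most 5 counts in any library and did not pass the filter. end-3 and med-1 were not found among the 16259 genes of the deposited count table and could not be analysed.

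**Figure D2:**
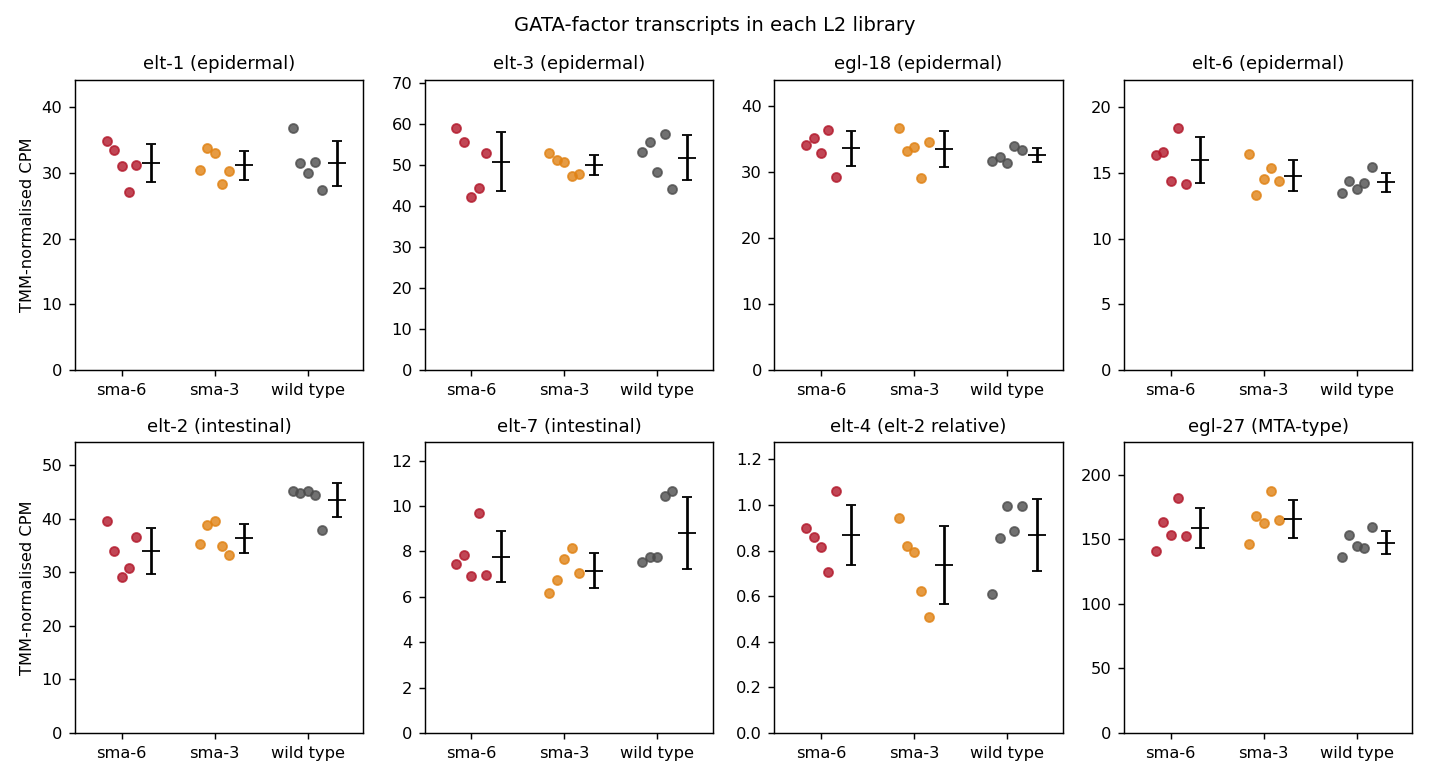
TMM-normalised CPM of each member in every library of sma-6 mutants, sma-3 mutants and the wild type (points), with the mean and SD beside them (bars, n = 5). For elt-2 the mutant libraries lie between 29.1 and 39.6 CPM and the wild-type libraries between 37.9 and 45.2 CPM, while the ranges of the epidermal members overlap broadly.

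None of the epidermal members was called in either mutant by edgeR, DESeq2 or limma-voom, and 0 of 4 had an unadjusted edgeR p under 0.05. elt-1, the embryonic specifier of epidermis, stood at 34.8, 33.5, 31.03, 27.1 and 31.2 CPM in sma-6 mutants, at 30.5, 33.7, 33.0, 28.4 and 30.3 CPM in sma-3 mutants, and at 36.8, 31.5, 30.0, 31.7 and 27.4 CPM in the wild type. The highest and the second lowest of the 15 values both came from the wild type, and all ranges overlapped. Its 95% intervals of the fold change were 0.888 to 1.13 in sma-6 mutants (adjusted p = 0.995 by edgeR) and 0.878 to 1.11 in sma-3 mutants (adjusted p = 0.931 by edgeR). Both intervals exclude a fall as large as the 0.781-fold estimate for elt-2 in sma-6 mutants.

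elt-3, the factor of the differentiated epidermis, had the highest level per kb of the 4 epidermal members. It stood at 59.0, 55.5, 42.3, 44.4 and 52.9 CPM in sma-6 mutants, at 52.9, 51.2, 50.7, 47.2 and 47.8 CPM in sma-3 mutants, and at 53.0, 55.6, 48.4, 57.6 and 44.2 CPM in the wild type. The sma-6 libraries were the most spread, with a coefficient of variation of 14.2% against 4.75% in sma-3 mutants and 10.5% in the wild type. The fold change had a 95% interval of 0.860 to 1.12 in sma-6 mutants (adjusted p = 0.895 by edgeR) and of 0.846 to 1.10 in sma-3 mutants (adjusted p = 0.744 by edgeR).

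egl-18, which keeps seam cells from adopting the fate of the surrounding epidermis, was the least variable member in the wild type. It stood at 34.1, 35.2, 32.9, 36.3 and 29.3 CPM in sma-6 mutants, at 36.6, 33.2, 33.8, 29.1 and 34.6 CPM in sma-3 mutants, and at 31.7, 32.3, 31.3, 33.9 and 33.4 CPM in the wild type. Each mutant had libraries both above and below the whole wild-type range. The 95% intervals of the fold change were 0.933 to 1.14 in sma-6 mutants (adjusted p = 0.762 by edgeR) and 0.930 to 1.14 in sma-3 mutants (adjusted p = 0.743 by edgeR), the narrowest of all members on the log2 scale.

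elt-6, the neighbour and partner of egl-18, had its highest mean in sma-6 mutants. It stood at 16.4, 16.6, 14.4, 18.4 and 14.2 CPM in sma-6 mutants, at 16.4, 13.3, 14.5, 15.4 and 14.4 CPM in sma-3 mutants, and at 13.5, 14.4, 13.8, 14.2 and 15.5 CPM in the wild type. In sma-6 mutants 3 of 5 libraries lay above every wild-type library, with a log2 fold change of 0.16 (SE 0.082, adjusted p = 0.262 by edgeR) and a 95% interval of 0.994- to 1.26-fold. In sma-3 mutants the log2 fold change was 0.05 (SE 0.083, adjusted p = 0.715 by edgeR). The ratio of egl-18 to elt-6 per kb was 1.75 ± 0.0947 in sma-6 mutants, 1.89 ± 0.190 in sma-3 mutants and 1.90 ± 0.0753 in the wild type.

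egl-27 had the highest mean level per kb in each genotype and was not called either. It stood at 141, 164, 153, 182 and 152 CPM in sma-6 mutants, at 146, 168, 162, 187 and 164 CPM in sma-3 mutants, and at 136, 153, 145, 143 and 159 CPM in the wild type. In sma-3 mutants 4 of 5 libraries lay above every wild-type library, and the log2 fold change was 0.17 (SE 0.074, adjusted p = 0.132 by edgeR, exact two-sided permutation p = 0.0397, adjusted over 24 tests 0.317). In sma-6 mutants it was 0.10 (SE 0.074, adjusted p = 0.461 by edgeR). The call was not reached in any of the 24 alternative fits of either mutant.

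The mutants were also compared directly, which tests whether an effect differs between loss of the receptor and loss of the Smad. None of the 8 members was called between sma-6 and sma-3 mutants, where 23.1% of all genes were (12.7% higher and 10.3% lower in sma-6 mutants). DESeq2 and limma-voom called none either, and none had an unadjusted edgeR p under 0.05. The log2 difference of elt-2, sma-6 minus sma-3, was -0.10 (SE 0.083, adjusted p = 0.416 by edgeR), with a 95% interval from -0.27 to 0.08. The widest interval among the other members was that of elt-4, from -0.23 to 0.70, and the next that of elt-7, from -0.15 to 0.39.

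**Figure D3:**
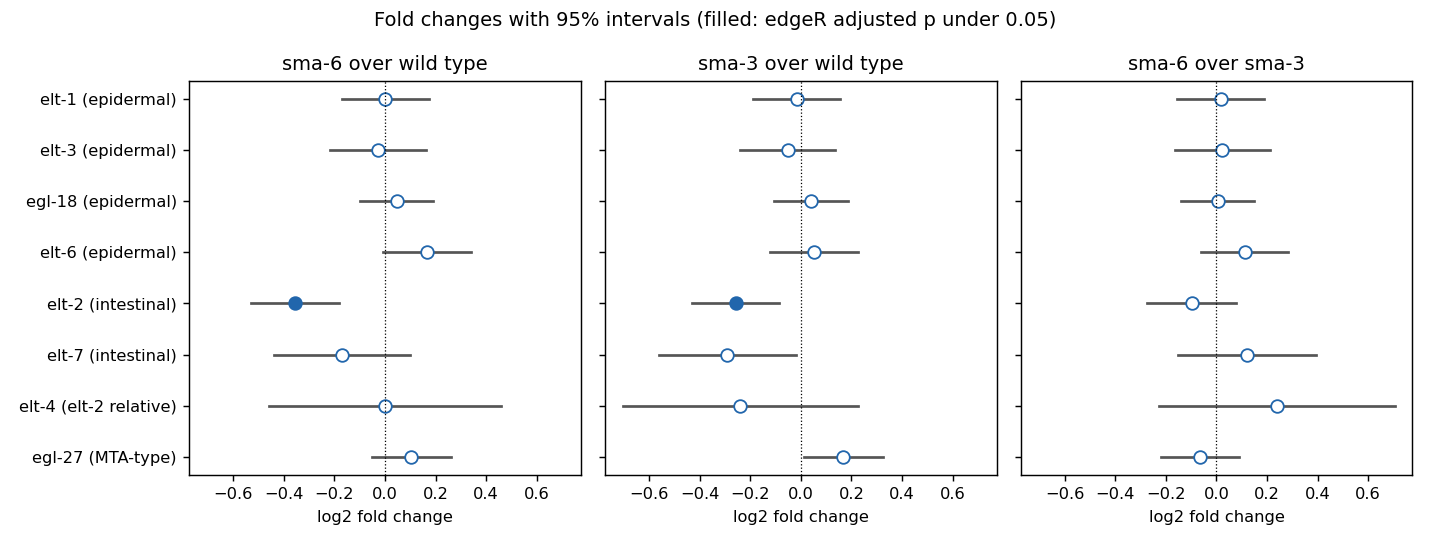
Log2 fold change of each member (point) with its 95% interval (line) for sma-6 mutants over the wild type, sma-3 mutants over the wild type and sma-6 over sma-3 mutants; filled points passed an edgeR adjusted p of 0.05. The filled points are elt-2 in sma-6 (-0.36) and sma-3 mutants (-0.26).

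The epidermal and intestinal members were then set against each other within each library. Their difference does not depend on how libraries are scaled, and the separate means do. The mean log2 CPM of elt-1, elt-3, egl-18 and elt-6 was 4.93 ± 0.097 in sma-6 mutants, 4.89 ± 0.063 in sma-3 mutants and 4.88 ± 0.059 in the wild type. The mean log2 CPM of elt-2 and elt-7 was 4.02 ± 0.11 in sma-6 mutants, 4.02 ± 0.099 in sma-3 mutants and 4.29 ± 0.094 in the wild type. With TMM scaling the epidermal mean thus differed by less than the spread between libraries. The intestinal mean was lower in every mutant library (3.84 to 4.12 in sma-6 and 3.89 to 4.13 in sma-3 mutants) than in every wild-type library (4.22 to 4.43). Neither elt-2 nor elt-7 alone separated a mutant from the wild type in this way, and elt-7 was not called. Wild-type replicate 5 had the lowest elt-2 (5.25) and the highest elt-7 (3.43) of the wild-type log2 CPM values, which offset each other in the mean. With library totals as the only scaling, an alternative chosen after seeing the data, the intestinal means were 3.83 to 4.14 in sma-6, 3.88 to 4.19 in sma-3 and 4.15 to 4.38 in wild-type libraries, so that the sma-3 and wild-type ranges overlapped. The epidermal means under that scaling were 4.91 ± 0.093 in sma-6, 4.94 ± 0.040 in sma-3 and 4.85 ± 0.053 in wild-type libraries. There the sma-3 mean exceeded the wild-type mean by more than either SD. The ranges still overlapped, at 4.88 to 4.97 in sma-3 and 4.77 to 4.90 in wild-type libraries.

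The epidermal mean exceeded the intestinal mean by 0.79 to 0.98 in sma-6 libraries, by 0.71 to 1.08 in sma-3 libraries and by 0.48 to 0.71 in wild-type libraries, on the log2 scale. The lowest mutant value, 0.714 in sma-3 replicate 5, and the highest wild-type value, 0.708 in replicate 1, nearly touched. No test was applied to these scores, since the members were chosen with earlier results of these data known. From the fitted fold changes, the epidermal mean exceeded the intestinal mean by 0.31 in sma-6 mutants and by 0.28 in sma-3 mutants, relative to the wild type. Leaving out any single library kept these differences between 0.28 and 0.34 in sma-6 mutants and between 0.23 and 0.32 in sma-3 mutants.

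The ratios of the single epidermal genes to elt-2 had higher means in both mutants, with ranges that overlapped the wild type in most cases. All of them share elt-2 as the denominator, so they restate its lower level and are not separate observations. The ratio of elt-3 to elt-2 per kb was 1.53 to 1.74 in sma-6 libraries, 1.36 to 1.60 in sma-3 libraries and 1.14 to 1.38 in wild-type libraries. The ratio of elt-1 to elt-2 per kb was 0.600 to 0.751 in sma-6 libraries, 0.571 to 0.642 in sma-3 libraries and 0.467 to 0.573 in wild-type libraries. The sma-6 ranges lay above the wild-type ranges for both ratios, and the sma-3 ranges overlapped the wild-type ranges at their ends. For the seam cell factors the ranges of both mutants overlapped the wild type: the ratio of egl-18 to elt-2 per kb was 0.738 to 1.09 in sma-6, 0.768 to 0.961 in sma-3 and 0.641 to 0.814 in wild-type libraries. The ratio of elt-6 to elt-2 per kb was 0.429 to 0.664 in sma-6, 0.380 to 0.517 in sma-3 and 0.331 to 0.453 in wild-type libraries.

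**Figure D4:**
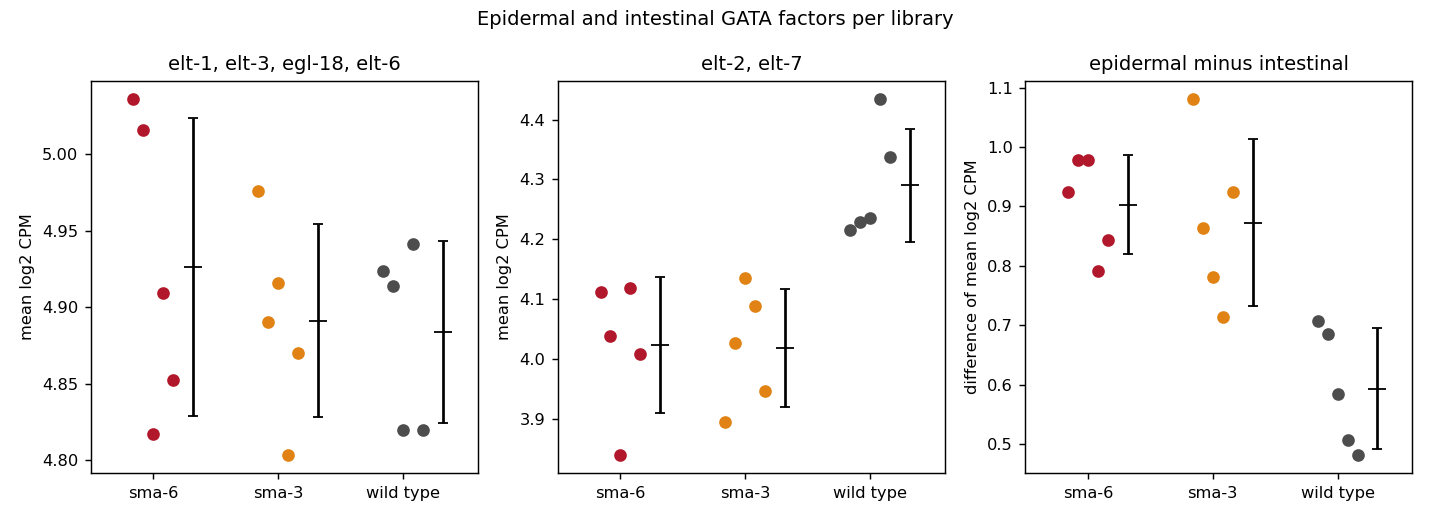
Mean log2 CPM of the 4 epidermal members, of the 2 intestinal members and their difference in each library (points), with mean and SD (bars, n = 5) for sma-6 mutants, sma-3 mutants and the wild type; the vertical axes do not start at 0. Intestinal means are 3.84 to 4.13 in the mutants and 4.22 to 4.43 in the wild type.

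Genes that work with or below these factors were read from the same fits. Comparisons of both mutants share the wild-type libraries, so their lists of calls are not independent. Of 27 intestinal genes linked to ELT-2 and ELT-7, 8 were lower and 1 was higher in sma-6 mutants, and 12 were lower and 1 was higher in sma-3 mutants. Lower calls thus made up 29.6% of the list against 3.51% of all genes in sma-6 mutants, and 44.4% against 10.2% in sma-3 mutants. The list includes all 7 intestinal markers given above, so the 2 and 4 markers called lower there are counted again here. It was chosen with earlier results of these data known. The median log2 fold change of the list was -0.16 in sma-6 mutants and -0.20 in sma-3 mutants, where the median of all tested genes was 0.01 in both comparisons. With library totals as the only scaling 8 and 6 of these genes were lower and 1 and 4 higher in sma-6 and sma-3 mutants, and without wild-type replicate 5, 9 and 13 were lower. The sma-3 count of 12 lower genes was 7 without wild-type replicate 1, 2, 3 or 4 or without sma-3 replicate 4 or 9, and 6 with a block for the replicate number, while the sma-6 count stayed between 7 and 10 in all 24 alternatives.

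The intestinal genes with the smallest p included structural, transport and granule genes. In sma-6 mutants ifb-2, an intermediate filament of the gut terminal web, stood at 446 ± 19.8 CPM, against 621 ± 35.4 CPM in the wild type (log2 fold change -0.48, adjusted p = 0.000379 by edgeR). haf-9, an ABC transporter of gut granules, stood at 223 ± 11.9 CPM in sma-6 mutants and 203.0 ± 6.03 CPM in sma-3 mutants, against 282 ± 16.1 CPM in the wild type (log2 fold changes -0.34 and -0.48, adjusted p = 0.000651 and 5.5e-05 by edgeR). Its partner haf-4 fell as well in sma-3 mutants (log2 fold change -0.58, adjusted p = 8.0e-05 by edgeR). In sma-6 mutants ifd-2, another intermediate filament, and pept-1, the intestinal transporter of short peptides, fell by 0.35 and 0.40 on the log2 scale (adjusted p = 0.00173 and 0.00236 by edgeR). In sma-3 mutants spl-1, the sphingosine phosphate lyase, stood at 107 ± 4.59 CPM, against 133 ± 3.85 CPM in the wild type (log2 fold change -0.32, adjusted p = 0.000817 by edgeR).

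Of the 27 intestinal genes 6 had positive log2 fold changes in each mutant. The only 1 called higher was cpr-4, a cathepsin B-like protease. It rose to 468 ± 68.1 CPM in sma-6 mutants and 564 ± 37.3 CPM in sma-3 mutants, against 352 ± 53.9 CPM in the wild type (log2 fold changes 0.41 and 0.68, adjusted p = 0.0247 and 0.000793 by edgeR).

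Genes of the epidermis were called in both directions, at shares near those of all genes. Of 26 epidermal genes linked to ELT-1 and ELT-3, 1 was higher and 1 lower in sma-6 mutants (7.69% called, against 6.5% of all genes), and 2 were higher and 1 lower in sma-3 mutants (11.5% called, against 14.6%). In sma-6 mutants vab-10, a spectraplakin of epidermal attachments, rose by 0.37 on the log2 scale (adjusted p = 0.00607 by edgeR) and rol-6, a cuticle collagen, fell by 0.53 (adjusted p = 0.0256 by edgeR). In sma-3 mutants vab-19 and mup-4, which also act in epidermal attachment, rose by 0.29 and 0.24 on the log2 scale (adjusted p = 0.00884 and 0.0473 by edgeR), and fbn-1, a fibrillin-related protein of the apical matrix, fell by 0.68 (adjusted p = 0.0219 by edgeR). The list medians were 0.04 and 0.01. At an unadjusted p under 0.05 by edgeR, 12 of the 26 passed in sma-6 mutants and 5 in sma-3 mutants. Over all 13720 genes, fewer than 3189 passed this in sma-6 mutants and at least 3690 in sma-3 mutants, by the ranks of elt-6 and elt-7. The share of the list was thus above that of all genes in sma-6 mutants and below it in sma-3 mutants. Without wild-type replicate 5, 7 of these genes were higher and 2 lower in sma-3 mutants, in a fit where calls over all genes numbered 3069 instead of 1997.

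Of 8 tested seam cell genes acting with EGL-18 and ELT-6, among them the homeobox gene ceh-16, the Runx gene rnt-1 and its partner bro-1, none was called against the wild type in either mutant, and the same held for 8 Wnt pathway genes that act upstream of egl-18, with edgeR, DESeq2 and limma-voom. At an unadjusted p under 0.05 by edgeR, 3 of the seam cell genes and 0 of the Wnt genes passed in sma-6 mutants, and 1 and 2 in sma-3 mutants. Of all 13720 genes, fewer than 3189 passed this in sma-6 mutants and at least 3690 in sma-3 mutants. Without wild-type replicate 5, 2 genes of each list were called higher in sma-3 mutants. Of 8 genes of MTA and NuRD-type chromatin complexes related to EGL-27, none was called in sma-6 mutants by edgeR (2 at an unadjusted p under 0.05, 1 by DESeq2, 0 by limma-voom) and only dcp-66, a p66-type subunit, in sma-3 mutants (log2 fold change 0.24, adjusted p = 0.0431 by edgeR).

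The 10 stress and cuticle genes linked to ELT-3 were mixed. In sma-6 mutants 3 were higher and 0 lower: col-13, a cuticle collagen (log2 fold change 0.57, adjusted p = 0.0196 by edgeR), gst-4, a glutathione transferase (0.38, adjusted p = 0.0323 by edgeR), and gpdh-2, an enzyme of glycerol synthesis (0.26, adjusted p = 0.0440 by edgeR). In sma-3 mutants col-13 was higher (0.43, adjusted p = 0.0482 by edgeR), while gpdh-2 and the antimicrobial peptide genes nlp-31 and nlp-34 were lower (-0.30, -0.41 and -0.62, adjusted p = 0.0119, 0.0220 and 0.0486 by edgeR). Without wild-type replicate 5, 2 were higher and 0 lower in sma-6 mutants, and 0 higher and 4 lower in sma-3 mutants. The sma-6 count of 3 higher was 1 without wild-type replicate 2 or 3 or sma-6 replicate 3 or 4, and 2 genes were lower without sma-6 replicate 1. The sma-3 count of 3 lower was 1 without wild-type replicate 3 or 4 or sma-3 replicate 9. With all libraries gpdh-2 was called in opposite directions in the mutants. The elt-3 transcript stood at 50.8 ± 7.20 CPM in sma-6 mutants, 49.97 ± 2.37 CPM in sma-3 mutants and 51.8 ± 5.44 CPM in the wild type. A link between elt-3 and these genes was not tested.

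**Figure D5:**
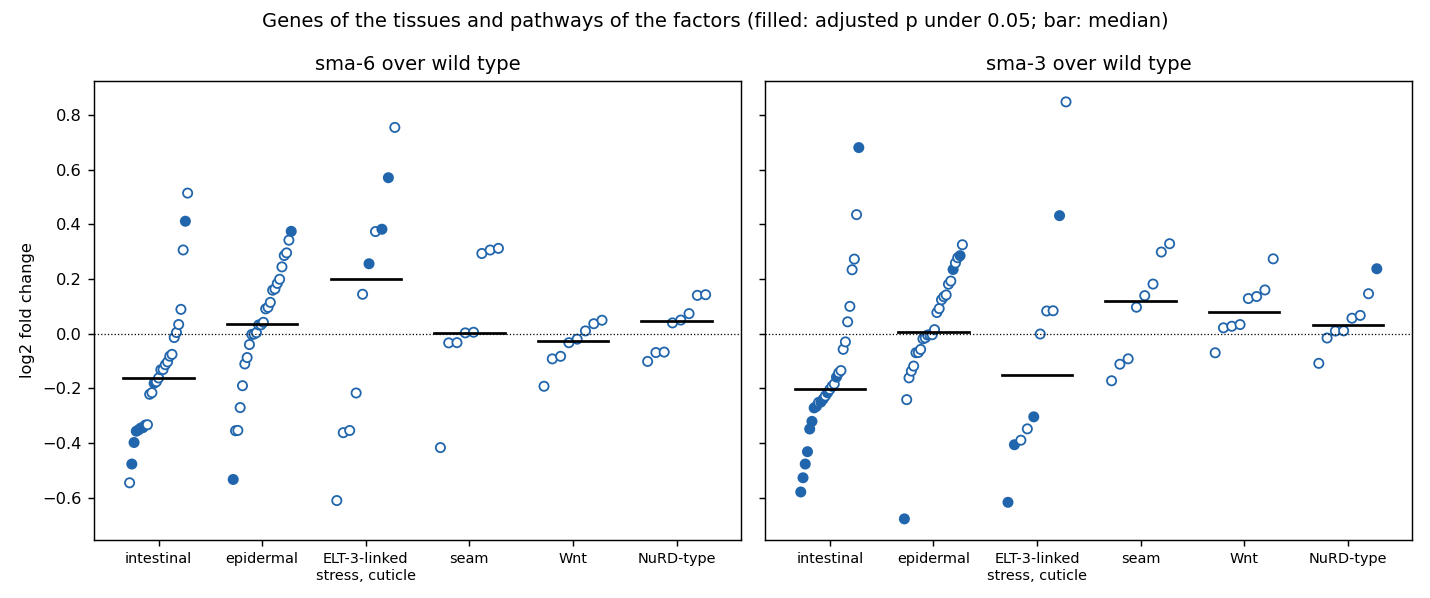
Log2 fold change of each tested gene (points, filled where the edgeR adjusted p was under 0.05) and the median (bar) of 6 gene lists, for sma-6 mutants over the wild type (left) and sma-3 mutants over the wild type (right). The intestinal list has medians of -0.16 and -0.20, and the epidermal list of 0.04 and 0.01.

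The genes whose pattern over all 15 libraries was most like that of each member were taken by Pearson's r of log2 CPM among 11603 genes with a mean log2 CPM of at least 1. The search takes the highest of many values, and the libraries share depth and genotype, so r describes likeness only. For elt-2 they were elo-2, a fatty acid elongase (r = 0.911), and the C-type lectin gene clec-265 (0.901), and for elt-7 F28F5.6 (0.894) and C50H2.13 (0.858). For elt-3 they were T21B6.3 (0.841) and dpy-6 (0.832), a gene named for its short body shape mutants, and for elt-1 rsks-1, the S6 kinase gene (0.846), and gst-14 (0.837). For egl-18 they were T23B5.3 (0.821) and B0432.8 (0.792), and for elt-6 C49H3.6 (0.842) and F16C3.2 (0.820). For egl-27 they were F26A1.13 (0.937) and C50B8.4 (0.931), and for elt-4 dss-1 (0.851) and T03G11.9 (0.850). None of these genes is a member.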

How the data were processed

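Per the labels, poly-A RNA of whole L2 larvae was made into stranded TruSeq libraries. The authors deposited whole-number counts per gene and library, CPM that equal each count over the library total to within 0.0005, and, for sma-3 mutants over the wild type, log2 fold changes, average log2 expression, p-values and false discovery rates. The submitters' processing notes name STAR 2.5.2b, featureCounts 1.5.2, limma and WBcel235; the strand setting of the counting is not given in the sources used here. Counts were analysed in R 4.3.3 with edgeR 4.0.16: TMM factors, filterByExpr over genotype (minimum count 10, minimum total 15), and a single quasi-likelihood fit to all 15 libraries with a term for genotype. A call needs a p under 0.05 after Benjamini-Hochberg adjustment. Standard errors came from the quasi-likelihood F statistic, and log2 CPM used a prior count of 2. Levels per kb used the union of annotated exons in Ensembl release 115, matched for 98.8% of genes. The gene ifo-1 was matched by identifier to a row with an older name. Library totals of 16467702 to 48292350 counts put 3 counts at 0.0621 to 0.182 CPM; intervals cover these libraries' spread, and the labels name no molecular identifiers.

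On simulated counts with 199 tested genes changed 2-fold in the sma-3 libraries, the fit recovered 88.4% among 13612 genes, with 4.86% of calls false. All member changes were smaller than 2-fold, and recovery at their size was not measured. Whether replicate numbers shared between genotypes pair libraries was not settled. Of 11 same-numbered pairs 2 had a correlation of deviations above 0.1, with a range of -0.12 to 0.13 against -0.24 to 0.36 in 64 other pairs. This check cannot exclude pairing. Replicate pairs differed by more than sampling noise (chi-square per degree of freedom 5.09 to 40.0). Alternatives were other scalings, filters, tools (DESeq2 1.42.0, limma-voom 3.58.1) and subsets of libraries. The named genes were the 8 members, the mutated genes, the 2 genes most like each member, and up to 4 called genes with the smallest p per list and comparison with the wild type. Members and lists were chosen with earlier results of these data known. No sequences are shown.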

Additional observations from a re-analysis of the deposited data

Results flagged for a closer look

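The elt-2 level of wild-type replicate 5, 37.9 CPM, lay far below the other 4 wild-type libraries, which stood between 44.4 and 45.2 CPM. The rule used flags a gap to the next value above 0.71 of the whole range. By chance this cutoff flags about 1 group of 5 samples in 20. In all, 24 groups of 5 libraries were examined (8 members in 3 genotypes), of which 1 was singled out where 1.2 would be by chance. These rates belong to the cutoff, and the rate of a gap as large as this one was not computed. The same library stood apart from the wild type over all genes. Without it the log2 fold change of elt-2 was -0.40 in sma-6 mutants and -0.30 in sma-3 mutants, against -0.36 and -0.26 with it.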

How the results depend on the processing

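Of 573 refits of the 24 member fold changes under 24 alternatives, 498 kept both direction and side of the threshold, 13 lost a call (all of them elt-2 in sma-3 mutants) and 62 changed sign, none of these past the threshold. The count of members called in sma-3 mutants was 1, and it was 0 with library totals as the only scaling, with the filter of 1 CPM in 5 libraries, with the replicate block on 13 libraries and in the same 13 libraries without it; it ranged between 0 and 1 when single libraries were left out. The counts of genes called were 1997 in sma-3 mutants, 892 in sma-6 mutants and 3169 between the mutants; with the replicate block they were 806, 522 and 1075, and in the same 13 libraries without the block 1004, 680 and 1905. The block was not part of the main fit, since replicate numbers are only partly shared between genotypes and pairing was not established. Under the block elt-2 had a log2 fold change of -0.43 in sma-6 mutants (adjusted p = 0.0117 by edgeR) and -0.17 in sma-3 mutants (adjusted p = 0.220 by edgeR). Leaving out single libraries gave 1156 (without wild-type replicate 2) to 3069 (without wild-type replicate 5) calls in sma-3 mutants, and 1247 to 1304 without wild-type replicates 3 or 1 or sma-3 replicate 9. With library totals as the only scaling, genes called higher made up 65.9% of calls in sma-3 mutants (30.2% with TMM) and 37.9% between the mutants (55.2% with TMM); the cause was not tested.

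The sign changes were all near 0, at most 0.112 in size. For elt-1 in sma-3 mutants the log2 value was 0.069 with library totals, 0.00034 with the CPM filter, 0.063 with the block, 0.0041 in the 13 libraries and -0.060 to 0.046 without single libraries; for elt-3 it was 0.030 with library totals and 0.019 with the block. In sma-6 mutants elt-1 was at -0.0018 with RLE, -0.0021 with DESeq2, -1.07e-06 with limma-voom, -0.041 with the block and -0.043 to 0.063 without single libraries; elt-3 was at -0.093 to 0.031 without single libraries; elt-4 was at 0.018 with library totals, 0.0074 with limma-voom, 0.0050 with only the genotypes compared and -0.094 to 0.067 without single libraries. Between the mutants egl-18 was at -0.0035 with RLE, -0.053 with library totals, -0.0082 with the CPM filter, -0.0032 with DESeq2, -0.0097 with only the genotypes compared and -0.049 to 0.051 without single libraries; elt-1 was at -0.045 with library totals, -0.104 with the block, -0.00088 in the 13 libraries and -0.036 to 0.056 without single libraries; elt-3 was at -0.037 with library totals, -0.112 with the block, -0.017 in the 13 libraries and -0.050 to 0.083 without single libraries; and egl-27 was at 0.018 with the block. elt-4 could not be fitted under the CPM filter, which removed it. The list counts under these alternatives were chosen after seeing the data.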

Other observations

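Between the mutants, of 10 stress and cuticle genes linked to ELT-3, 5 had higher and 3 had lower levels in sma-6 mutants, relative to sma-3 mutants, where 12.7% of all genes were higher and 10.3% lower. Those higher were gpdh-1 and gpdh-2, which make glycerol for osmotic protection (log2 differences 1.14 and 0.56, adjusted p = 0.00477 and 0.000105 by edgeR), the epidermal antimicrobial peptide genes nlp-31 and nlp-29 (0.78 and 0.49, adjusted p = 0.000199 and 0.00710 by edgeR) and gst-4 (0.38, adjusted p = 0.0130 by edgeR). Those lower were the cuticle collagens col-144, col-10 and col-120 (-0.44, -0.45 and -1.46, adjusted p = 0.0255, 0.0261 and 0.0387 by edgeR), of which col-120 was below 1 CPM in both mutants' means. The higher calls numbered 5 whichever single library was left out, and 3 with the replicate block. The 3 lower calls numbered 0 without sma-3 replicate 5 or sma-6 replicate 2 or 3, and 1 without sma-3 replicate 3 or 4. elt-3 itself differed by 0.02 between the mutants (adjusted p = 0.877 by edgeR). These genes were named after their values were seen.

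Of 8 Wnt pathway genes upstream of egl-18, 3 were lower in sma-6 mutants relative to sma-3 mutants, where 10.3% of all genes were: sys-1, pop-1 and lit-1, which act in the asymmetric divisions of seam cells (log2 differences -0.47, -0.22 and -0.17, adjusted p = 0.00737, 0.0418 and 0.0466 by edgeR). The count was 1 without wild-type replicate 1, sma-3 replicate 2 or 4 or sma-6 replicate 2, 3 or 6, 1 with no filter on low counts, and 0 with the replicate block. egl-18 differed by 0.01 (adjusted p = 0.967 by edgeR). Of 7 germline markers 4 were higher and 0 lower in sma-6 mutants, again relative to sma-3 mutants, where 12.7% of all genes were higher and 10.3% lower. None of these markers was called against the wild type in either mutant by edgeR. The genes and markers of this paragraph were also named after their values were seen.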
